A study of Mus musculus with 2 samples.

Results

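The Ly6 genes that name the antigens of the neutrophil sort, with close relatives and Cd177, were followed on 2 Affymetrix arrays of mouse bone marrow neutrophils. The set was defined by name as 8 genes, Ly6g, Ly6c1, Ly6c2, Ly6a, Ly6d, Ly6e, Ly6i and Cd177, and held every probe set that the array annotation assigns to them. Of the 45037 non-control probe sets, 6 belonged to the set. Ly6d, Ly6i and Cd177 had 1 probe set each and Ly6e had 2, while Ly6c1 and Ly6c2 were read together by 1 shared probe set. Ly6g and Ly6a had no probe set in the annotation used here, so the gene of the antigen that defined the sort could not be read by name.

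One array held RNA of cells labelled Jdp2 KO and the other RNA of cells labelled Jdp2 WT, and both groups of mice are labelled with the strain C57BL/6 /129/J mixed background. The cells of both were sorted as CD11b+, Ly6G+ and low for Ly6C. The age of the mice, the kind of knockout allele and the number of mice per array were not found in the labels. With 1 array per group there was no spread between mice and no test, and precision is limited by there being 2 arrays. Jdp2 itself read 12.38 under the knockout label and 11.997 under the wild-type label with its stronger probe set (1450350_a_at), and 5.40 and 5.24 with the other (1424972_at). It was therefore not lower in the library labelled knockout. Whether these probes lie inside the deleted part is not given, so this reading checks nothing, and directions below refer to the labels. Values are log2 RMA signals, and a difference is the library labelled knockout minus the library labelled wild type.

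Ly6 proteins are small surface proteins with a disulphide-bonded three-finger fold, most of them held in the outer membrane leaflet by a glycosylphosphatidylinositol (GPI) anchor. In mouse bone marrow, Ly6G is carried mainly by neutrophils, Ly6C is high on inflammatory monocytes and lower on neutrophils, and Ly6A is the stem cell antigen Sca-1. CD177 is a GPI-anchored neutrophil protein of the same fold family that is known to pair with beta-2 integrins.

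Sequences directly outside the genes show how alike the Ly6 genes of the sort are. The following 120 bases lie directly before the outermost annotated end of each gene, on the strand of the gene, from RefSeq on GRCm38.p6. They are chr15:75155141-75155260 (plus strand) for Ly6g, chr15:75048921-75049040 (minus strand) for Ly6c1, chr15:75112067-75112186 (minus strand) for Ly6c2 and chr7:24760335-24760454 (minus strand) for Cd177. Of the 8 genes, 4 were in the promoter table. Capitals mark TATAAA, the core of a TATA box, and GAGGAAGT, a core bound by the myeloid factor PU.1.
Ly6g: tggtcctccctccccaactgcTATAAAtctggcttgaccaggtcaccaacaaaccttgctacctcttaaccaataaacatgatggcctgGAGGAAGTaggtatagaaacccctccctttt
Ly6c1: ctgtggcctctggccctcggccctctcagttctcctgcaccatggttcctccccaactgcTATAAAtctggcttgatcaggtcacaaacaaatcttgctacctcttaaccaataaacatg
Ly6c2: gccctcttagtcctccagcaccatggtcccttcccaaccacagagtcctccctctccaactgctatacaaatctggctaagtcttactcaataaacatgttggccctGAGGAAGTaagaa
Cd177: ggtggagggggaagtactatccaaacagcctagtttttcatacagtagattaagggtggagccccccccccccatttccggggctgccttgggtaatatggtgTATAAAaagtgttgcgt

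In the best local alignment, Ly6g and Ly6c1 shared 71 of 75 aligned positions (94.7%), a run that includes the TATAAA of both. Ly6c1 and Ly6c2 shared 71 of 101 (70.3%), and Ly6g and Ly6c2 shared 64 of 96 (66.7%). Searched on both strands with no motif overlapping another, TATAAA was found in the windows of Ly6g, Ly6c1 and Cd177, and in 6.34% of 32851 promoter windows of the same length. GAGGAAGT was found in those of Ly6g and Ly6c2, and in 1.33% of all windows. The Ly6c1 window ends before the place that holds GAGGAAGT in Ly6g and Ly6c2, so that place was not searched in Ly6c1. The windows behind these shares were cut at a fixed place of each promoter sequence, not at the outermost gene end. Jdp2 protein is known to bind AP-1 and cyclic AMP response elements. Neither TGANTCA, an AP-1 element (3.41% of all windows), nor TGACGTCA, the cyclic AMP response element (1.24%), was in the 4 windows. These letters are a description of the windows only.

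Ly6c1 and Ly6c2 encode the Ly6C antigens whose low surface level was 1 gate of the sort. Their shared probe set (1421571_a_at) read 13.58 under the knockout label and 13.56 under the wild-type label, a difference of 0.02. It lay above 99.8% of all probe sets on each array. Of the 312 probe sets within 0.5 of its mean level, 87.5% differed by at least as much, and the sign was not stable, with -0.01 after removal of a loess trend. The reading does not separate Ly6c1 from Ly6c2, and near the top of the scale (maxima 14.56 and 14.54) differences can be compressed. Both libraries come from cells that the sort had chosen for a low level of Ly6C protein.

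Cd177, the neutrophil surface protein, read 13.35 under the knockout label and 13.57 under the wild-type label (1424509_at), a difference of -0.22 or 1.17-fold. On the deposited scale it was the only member probe set with a lower value under the knockout label. The central 90% of 342 probe sets of like level ran from -0.21 to 0.25, so the value lay at the edge of that range, and 12.0% of them differed by at least as much. The difference stayed below 0 with each array centred on its median (-0.24), after quantile normalisation (-0.23) and after loess (-0.25). In bulk RNA, fewer cells that carry a transcript and less of it per cell cannot be told apart.

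Ly6e encodes a broadly expressed, interferon-inducible Ly6 protein. Its stronger probe set (1453304_s_at) read 12.35 under the knockout label against 11.99 under the wild-type label, a difference of 0.36 or 1.28-fold. The second (1439773_at) read 8.44 against 7.97, a difference of 0.47 or 1.39-fold. Both probe sets were higher under the knockout label and their mean difference was 0.42, with an SD of 0.08 over the 2 probe sets. That SD describes probe sets on shared RNA and not mice. Over the 4867 genes with at least 2 probe sets that passed the level filter, the median SD was 0.22. For the stronger probe set, 7.52% of the 1131 probe sets of like level differed by at least as much, and for the second, 28.2% of 3139. The central 90% ran from -0.32 to 0.33 for the stronger, whose value lay just past it, and from -0.78 to 0.72 for the second.

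Ly6d, a marker of early B-lineage progenitors, read 7.09 under the knockout label and 6.57 under the wild-type label (1416930_at), a difference of 0.53 or 1.44-fold. Differences are wider at this level: the central 90% of 4747 probe sets ran from -0.87 to 0.92, and 30.5% differed by at least as much. Ly6i, a close relative of Ly6C, read 5.15 and 3.98 (1425890_at). Its difference of 1.16 was the widest of the set. The central 90% of 8348 probe sets of like level ran from -0.78 to 0.89, and 3.67% differed by at least as much. Both Ly6i readings lay under the medians of their arrays, 5.67 and 5.65, where signal and background are not separated. No fold is given for Ly6i.

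**Figure D1:**
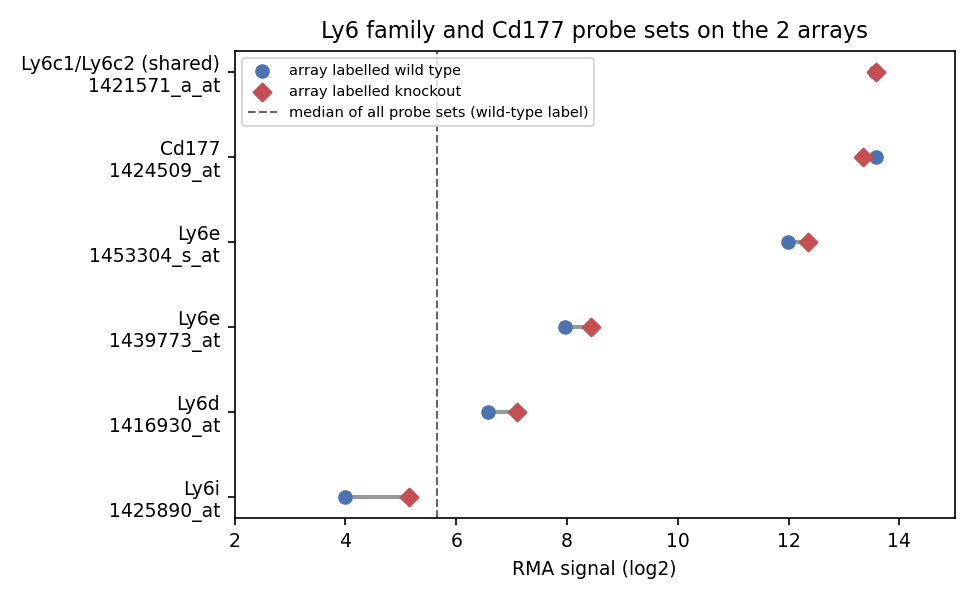
The log2 RMA signal (horizontal axis) of the 6 probe sets on the array labelled wild type (circles) and the array labelled knockout (diamonds), with the median of all probe sets as a dashed line. Within a row, Cd177 is lower under the knockout label, the shared Ly6c1 and Ly6c2 probe set is nearly equal at 13.58 and 13.56, and Ly6i lies left of the median on both arrays; rows are different probes and are not compared with each other.

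A probe set passed the level filter if its higher reading was at or above the median of that array, and it was counted when its difference was at least 1, which is 2-fold. Of the 6 probe sets, 5 passed and Ly6i did not. None of the 5 reached 2-fold, beside 5.6% of the 24089 probe sets that passed (1350), so a count of 0 of 5 does not set them apart from the rest of the array. Even at 1.5-fold (0.58) none of the 5 was counted. With no filter the count was 1 of 6, that of Ly6i, beside 4.43% of all 45037. The median absolute difference of all probe sets that passed was 0.26. The shared Ly6c1 and Ly6c2 probe set and Cd177 lay below it, and the 3 probe sets of Ly6e and Ly6d lay above it.

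**Figure D2:**
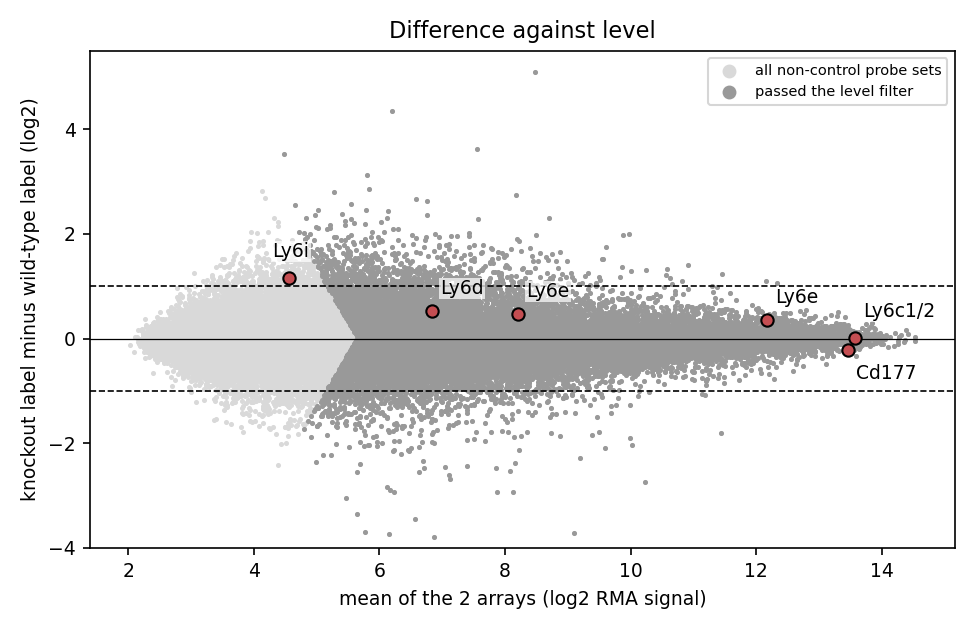
Difference between the 2 arrays (vertical axis, log2) against their mean (horizontal axis, log2 RMA signal) for all non-control probe sets, light grey, and those that passed the level filter, dark grey; red points are the members and dashed lines mark 2-fold. The 5 members that passed lie between -0.22 and 0.53, and Ly6i lies past the upper line at 1.16 among weak probe sets.

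Most members lie in one gene cluster, and the genes next to them were read as well. In the order of the GRCm38.p6 gene table, the stretch of protein-coding genes from Psca to Ly6l held 24 genes, of which 19 had a probe set and 5 had none in the annotation. Of the 20 probe sets of this stretch, 6 passed the level filter: those of Slurp1, Lypd2, Ly6d and the shared Ly6c1 and Ly6c2, and both of Ly6e. None of the 6 reached 2-fold, beside 5.6% of all probe sets that passed, so 0 of 6 does not set the stretch apart. All 6 differences were above 0, that of the shared probe set (0.02) turning sign after loess, but Slurp1 and Lypd2 passed only through their reading under the knockout label. Of the 14 probe sets that did not pass, 8 were below 0, so no common direction of the stretch is read from those that passed. Lypd2, a Ly6 relative, read 6.57 against 5.65, a difference of 0.92, and Slurp1 read 5.94 against 5.58. The next genes after Ly6g in this order with a probe set were weak. Ly6g2 read 5.06 and 5.29, and Ly6f read 3.70 and 3.92, all under the array medians. A probe set shared by Gml and Gml2 read 3.67 and 2.41, a difference of 1.26 far below the median. Over the whole stretch, differences ran from -0.72 to 1.26, and both ends were weak readings.

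**Figure D3:**
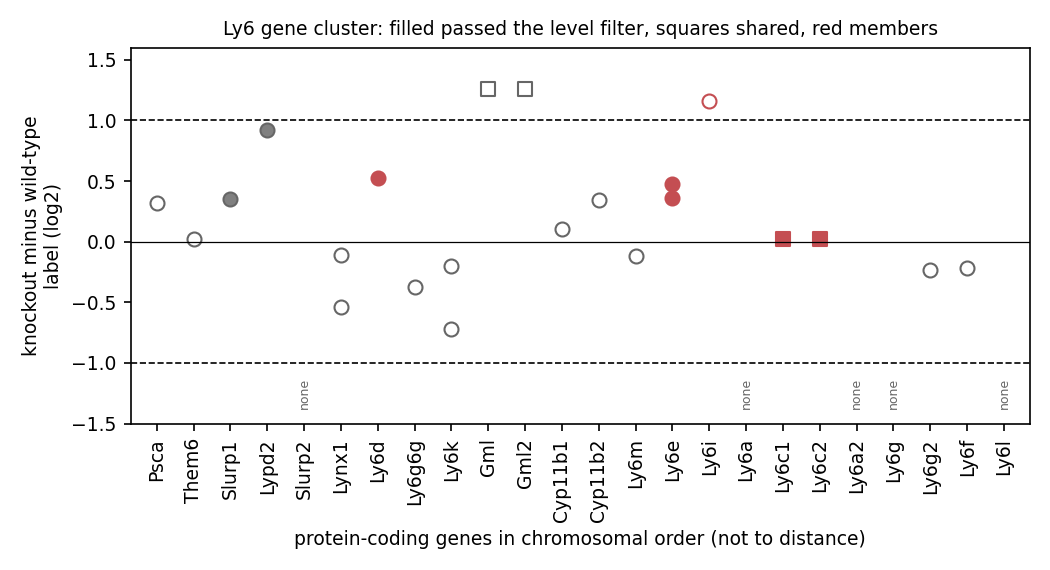
Difference between the 2 arrays (vertical axis, log2) of each probe set in the Ly6 gene cluster, with genes in chromosomal order but not to distance; filled symbols passed the level filter, squares are shared probe sets (drawn under both genes), red marks members and "none" marks genes with no annotated probe set. Filled points lie between 0.02 and 0.92, and the symbols past 2-fold, Ly6i and the shared Gml and Gml2 probe set, are open.

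Genes of the wider Ly6 superfamily were read in the same way. Of 38 further genes of the superfamily, 26 had a probe set of their own and 7 passed the filter, 3 of them with both readings above the medians. None was at 2-fold, beside 5.39% of 11168 genes that passed, so a count of 0 of 7 does not set the list apart. Their median difference was 0.22, against -0.04 over all genes that passed. Plaur, the urokinase receptor, which is abundant in neutrophils, read 11.92 against 11.70. Cd59a, an inhibitor of the complement attack complex, differed by 0.80, but its other probe set was at -0.47. Lypd6b lay lowest at -0.97 (5.01 against 5.97). With no level filter the median of the 26 genes was -0.08, so the sign of this median depends on which weak genes are read.

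Synthesis and transfer of the GPI anchor, which these proteins need to stay on the surface, was read from 37 listed genes. Of these, 29 passed, 19 with a difference below 0 and 10 above, and their median was -0.24, against -0.04 over all genes that passed. Averaging the probe sets of each gene gave a median of -0.12. Only Pgap6, a GPI-cleaving phospholipase, passed 2-fold, beside 5.39% of all genes that passed, so 1 of 29 does not set the list apart. It was at -1.04 (7.88 against 8.93), and its 4 probe sets ran from -1.22 to 0.26. That call was lost after quantile or loess normalisation and with the mean of its probe sets. Mppe1, which remodels the anchor, read 11.07 against 11.92, a difference of -0.85. Pigk, a subunit of the transamidase that attaches the anchor, was at -0.78 with probe sets from -0.997 to 0.45, and Pigo, which adds an ethanolamine phosphate to the anchor, was at -0.78 with probe sets from -0.78 to -0.32. Piga, the catalytic subunit of the first step, differed by 0.18.

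Genes of other GPI-anchored proteins differed in both directions. Of 16 listed, 10 passed, 5 above 0 and 5 below, with a median of -0.17. Cd48, a ligand of the SLAM-family receptor 2B4, read 7.51 against 5.53 (1.98), and Prnp, the prion protein, read 5.46 against 6.68 (-1.22), the lower reading of each being under the array median. Cd14, the lipopolysaccharide co-receptor, was at -0.79 and Cd55, a complement inhibitor, at -0.69. The abundant Cd24a (0.04), Cd52 (0.02) and Bst1 (0.05) were nearly equal in both libraries, as was the shared Ly6c1 and Ly6c2 probe set.

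Genes of the sort antigen CD11b, of its beta-2 partner and of CD45, which is not among the stated gates, were abundant in both libraries. Itgam, encoding CD11b, read 10.67 under the knockout label and 11.09 under the wild-type label, a difference of -0.43. Itgb2, the beta-2 chain it pairs with, read 12.73 and 12.88 (-0.15), and Ptprc, encoding CD45, differed by 0.22 and -0.31 with its 2 probe sets. Of the genes whose proteins are known to bind CD177 or to act with it, Prtn3, encoding the protease that human CD177 displays on the surface, read 7.27 against 4.41, the latter below the array median. The adhesion molecule Pecam1 differed by 0.18 and Itgal by 0.13. The 5 genes of this list had a median of 0.13.

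The label neutrophil was borne out by its markers. All 18 listed neutrophil genes with a probe set passed, with a median of 0.02 whose sign changed with the scaling (-0.03 after loess). S100a8 read 14.47 and 14.30, Camp 14.51 and 14.54, and Ltf 14.12 and 14.27. The 4 genes past 2-fold were the primary granule genes Mpo (5.09), Ctsg (4.36), Elane (3.62) and Prtn3 (2.86), which are made at the promyelocyte stage, beside 5.39% of all genes past 2-fold. Under the wild-type label Ctsg and Prtn3 lay below the array median of 5.65, and Mpo (5.93) and Elane (5.75) lay little above it. The size of all these differences is therefore uncertain.

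Several members are also expressed by other cells, and the markers of those cells were read beside them. Of 14 monocyte and macrophage genes that passed, 12 were above 0 and 7 at least 2-fold higher under the knockout label, beside 3.06% of all genes that passed. Of the 7, 3 (F13a1, Ms4a6c and S100a4) passed only through that array, so the count is a description. The counts also depend on the probe set read. The probe sets of Ms4a6c ran from 0.15 to 1.69 and those of Ccr2 from -0.02 to 1.07. Those of Vcan ran from -0.56 to 1.01 and of Cx3cr1 from -0.69 to 0.25. Those of Klf4 (0.74 to 0.77) and Csf1r (0.27 to 0.39) were all above 0. The largest differences were those of F13a1 (2.43), Ms4a6c (1.69), Mrc1 (1.64) and Adgre1 (1.25), the last 2 with both readings above the medians. The median was 0.89, against -0.04 over all genes that passed. It was 0.65 with no filter or with the filter on both readings. The summed linear signal of all 16 listed genes with a probe set was 28493 under the knockout label and 28743 under the wild-type label. By far the strongest gene in this sum is Chil3 (14.03 and 14.18), lower under the knockout label, which neutrophils express as well. The shared probe set of Ly6c1 and Ly6c2, whose protein is high on monocytes, differed by 0.02. The part of monocyte RNA in that reading was not tested.

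Beside Ly6d, 5 of 12 listed B-lineage genes passed, with a median of 0.10. Igll1 (1.15), Cd79a (0.85) and Vpreb1 (0.10) were above 0, and Ighm (-0.93) and Ebf1 (-0.31) below. The 11 probe sets of Ighm ran from -1.45 to 0.44, those of Ebf1 from -0.34 to 0.27 and those of Igll1 from 0.06 to 1.15. Igll1 passed only through its reading under the knockout label, and with the filter on both readings the median was -0.10. Pax5 and Ms4a1 lay under the array medians on both arrays. The summed signal of the list was 1209 under the knockout label and 1592 under the wild-type label, a sum whose strongest gene is Ighm (8.85 and 9.78). The part of B-lineage RNA in the Ly6d reading was not tested.

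Beside Ly6e, all 17 interferon-stimulated genes with a probe set passed the filter. With the probe set of highest mean, 16 lay above 0. Beside 5.39% of all genes that passed, none of the 17 was at 2-fold. Their median was 0.37, against -0.04 over all genes that passed, and close to the 0.36 and 0.47 of the Ly6e probe sets. Ifi47 (0.89), Gbp2 (0.89), Ifit1 (0.75) and Xaf1 (0.61) led, and Irgm1 (-0.21) was the exception. Other probe sets were at -0.55 for Xaf1, -0.91 for Rsad2 and 1.44 for Gbp2, so both counts depend on the probe set read. Averaging the probe sets of each gene gave 0.27. With 2 arrays, no relation between Ly6e and these genes can be tested.

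Other cells that can carry Ly6 antigens did not show one direction. Medians were -0.06 for 8 stem and progenitor genes (Cd48 1.98, Mecom 1.34, Slamf1 1.02, Kit -0.82), 0.30 for 5 T and NK cell genes (Nkg7 0.70, Cd8a -0.66) and 0.07 for 5 plasma cell and plasmacytoid dendritic cell genes (Jchain 0.89). They were 0.00, with a sign that changed with the scaling, for 6 endothelial and stromal genes and -0.27 for 3 erythroid genes (Car2 -1.29). Eng (1.58) and Col1a2 (1.51) passed only through the knockout label, and other probe sets of these genes were at -0.40 and -0.51. Cd48 and Slamf1 also passed only through the knockout label, and Cd8a only through the wild-type label. Probe sets of Slamf1 ran from -0.26 to 1.02 and those of Mecom from 0.13 to 1.34. Those of Kit ran from -0.82 to 0.06 and those of Cd8a from -0.66 to 0.21. Of 10 eosinophil and basophil genes only Ccr3 (1.13) and Siglecf (0.43) passed, Ccr3 through the knockout label alone, and the median was 0.78, or 0.43 with no filter or with the filter on both readings. Markers with both readings above the array medians were 6 of 11 for stem and progenitor cells, 4 of 11 for the B lineage and 4 of 10 for T and NK cells (among them Cd3d at 10.20 and 9.89). They were 5 of 9 for plasma and plasmacytoid dendritic cells, 2 of 12 for endothelial and stromal cells, 1 of 10 for eosinophils and basophils (Siglecf, 8.73 and 8.30) and 3 of 8 for erythroid cells. The part of these cells in the Ly6 readings was not tested.

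**Figure D4:**
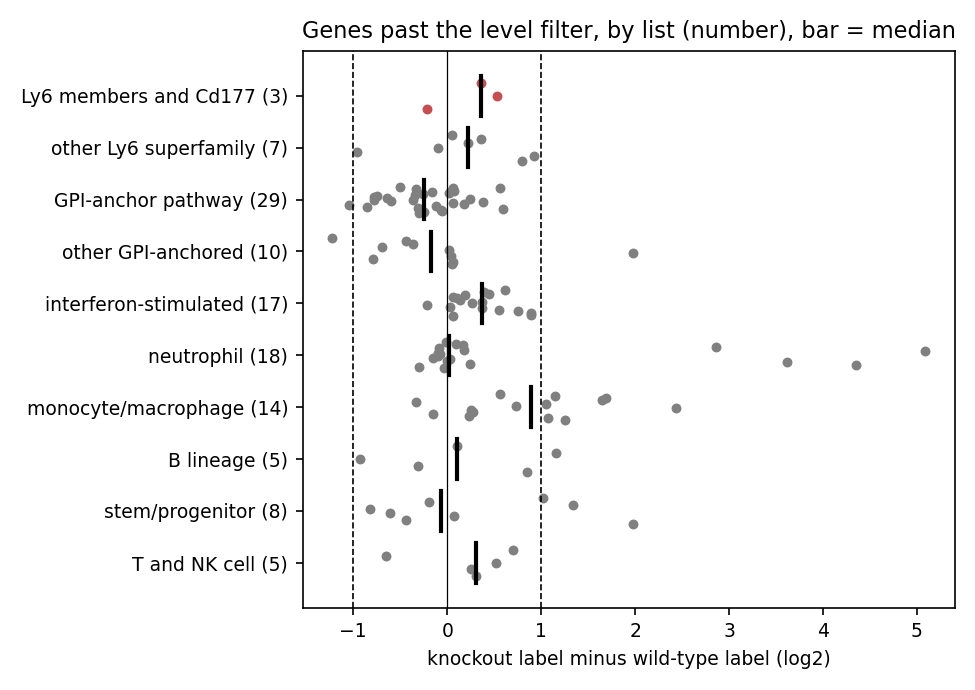
Differences between the 2 arrays (horizontal axis, log2) of genes that passed the level filter, by list with the number of genes. Each point is 1 gene, read by its probe set of highest mean. Black bars are medians and dashed lines mark 2-fold. The 3 member genes with probe sets of their own that passed (red) lie within 2-fold, as do all interferon-stimulated genes (median 0.37), while monocyte and macrophage genes extend to 2.43 and primary granule genes to 5.09.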

How the data were processed

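Total RNA of sorted bone marrow neutrophils was labelled with biotin and hybridised, 1 array per label. Deposited values are on the log2 scale, 1 per probe set, and were made by the authors with RMA according to the submitters' processing notes. Its version and inner settings were not given in the sources used here. Sorted values of both arrays differed by at most 0.117. RMA gives no detection call, and weak values include background, which understates folds.

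The table held 45101 probe sets, 64 of them controls. Of the other 45037, 34945 had 1 gene symbol, 932 several and 9160 none listed, and these last stayed unnamed. Symbols were updated by Entrez identifier (34741 matched). For each of 18193 genes the probe set of highest mean was taken; 11168 genes passed the level filter. The members and lists were chosen with earlier results of these data known. Named from lists were up to 4 genes with the largest absolute difference, sort genes and defining markers; Plaur, Slurp1, Piga, Cd24a, Cd52, Bst1, S100a8, Camp, Ltf, Chil3, Ebf1, Cd3d, Vpreb1, Irgm1, Pecam1, Itgal and the Ly6 cluster genes outside that rule were chosen after their values were seen. No likeness between genes can be ranked over 2 arrays. The size rule was tested on simulated arrays of these 18193 genes, in which it recovered 99.5% of 200 genes shifted by 3 on the log2 scale. The 200 were drawn from genes that passed the level filter, and a shift of 3 is far above the cut of 1. The simulation therefore gives no rate for differences as small as those of the members, and no rate of false calls. Promoter windows were aligned locally with biopython 1.88 (match 2, mismatch -1, gap opening -5, gap extension -1); other values were computed with pandas 2.3.3, numpy 2.4.6 and statsmodels 0.14.6 (loess span 0.3).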

Additional observations from a re-analysis of the deposited data

How the results depend on the processing

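Alternatives were the level filter, the scaling, the summary over probe sets, the removal of probe sets with the suffix _a_at, _s_at or _x_at, and a lower size rule. None of 23 member differences under the alternatives crossed 2-fold, and 1 changed sign, that of the shared Ly6c1 and Ly6c2 probe set after loess (-0.01). Those of the 23 read after the removal of suffixed probe sets could not change, because that setting only leaves probe sets out. The shared probe set and the stronger Ly6e probe set carry such a suffix, and without them Ly6c1 and Ly6c2 had no value and Ly6e was at 0.47. The count of member probe sets at 2-fold was 0 throughout, except for 1 (Ly6i) with no level filter. The single GPI-anchor gene at 2-fold became 0 after quantile normalisation, after loess and with probe sets averaged. The count of all genes at 2-fold, 602, was 197 with the filter at the 75th percentile, 329 with the filter on both values and 354 with probe sets averaged, each over fewer genes (6298, 9907 and 9589), and 1974 at 1.5-fold. List medians kept their sign under the 3 other scalings, except those of the neutrophil list and the endothelial and stromal list, both close to 0. Other filters or probe set summaries turned the sign of several medians over few genes: B-lineage (-0.62 to 0.61 over all alternatives), stem and progenitor (-0.42 to 0.41), endothelial and stromal (-0.74 to 0.18), CD177 partner (-0.15 to 0.16), other GPI-anchored (-0.21 to 0.03) and Ly6 superfamily (-0.08 to 0.24). No paired analysis was possible because each label has 1 array. Weak signal limits Ly6i and most Ly6 relatives, and signal near the top of the scale limits the shared Ly6c1 and Ly6c2 probe set and Cd177.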
